A study of Mus musculus with 27 samples.

Results

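The genes described here are the very long protein-coding genes of mouse macrophages. Members were selected on gene type, gene width and measured level: they were rows annotated as protein-coding whose gene spanned at least 400000 bases and that had at least 10 normalised reads in at least 3 of the 27 samples; symbols starting with Slc, Zfp, Arhgap, Arhgef, Dock, Pde, Hdac or Trim were left out. Of the 45070 genes in the table, 327 protein-coding genes met the width limit. Among these, 191 passed the limit on reads and 136 did not, and 19 were left out by symbol, 14 of them above the limit on reads. This left 177 members among 13901 genes tested, while a further 131 genes without those symbols stayed under the limit on reads and are not described. The limit on reads uses the levels themselves, so a gene silent in untreated cells could enter through a stimulated group: 55 of the 177 members had fewer than 10 reads in at least 1 untreated sample. Counts and medians over the members are therefore given as a description.

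Chromatin-associated RNA was sequenced from wild-type bone marrow-derived macrophages, which are macrophages grown from the marrow of male C57/BL6 mice. All 9 groups received the vehicle DMSO for 1 h, the solvent used for kinase inhibitors elsewhere in the study, and each group had 3 samples. The untreated group received nothing more. The others were stimulated with LPS, a bacterial lipopolysaccharide sensed by the receptor TLR4, or with IL-4, the cytokine of alternative macrophage activation, each at 10 ng/ml, and harvested after 0.5 h, 1 h, 2 h or 4 h. The time course was made to follow transcription directly after the stimulus, and the comparisons below ask when and how far the very long genes moved. Nothing in the labels says whether the samples of a group came from separate cultures or animals, so p-values measure the spread between these samples, which may be technical.

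RNA polymerase II transcribes a gene from its start to its end at a limited speed, and the introns of a long gene make up nearly the whole transcript. RNA still bound to chromatin is enriched in unfinished, unspliced transcripts, so reads fall along the whole gene body. After initiation stops, polymerases already under way go on to the end of the gene, and after initiation starts, the far end is reached last. Where introns are counted, read counts over a long gene thus average over positions that differ in how soon they can change. Whether introns were counted here is not given in the sources used. Fewer reads per gene can reflect fewer cells transcribing it or less RNA in each cell, which cannot be told apart in bulk samples.

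Normalised reads summed to 2469768 to 2790981 per library without LPS, and to 3571492 to 4058199 per library with LPS. Replicate 1 stood apart from replicates 2 and 3 in all 9 groups: over members with a mean of at least 50 reads, its median absolute log2 difference from replicates 2 and 3 was 0.175 to 0.348, against 0.0740 to 0.129 between replicates 2 and 3. Among those 96 members, replicate 1 was the highest of the 3 samples in every group for 17 and the lowest for 5. The 10 macrophage markers, among them Csf1r, Adgre1 and Cd68, were all present at a mean of at least 10 reads, and their sum ran from 10405 to 19941 reads over the samples. Markers of other cells were scarce: T cell markers summed to 0 to 14 reads, B cell markers to 1 to 8, NK cell markers to 0 to 4, mast cell markers to 0 to 3, neutrophil markers to 2 to 63, dendritic cell markers to 2 to 96, fibroblast markers to 28 to 218 and endothelial markers to 8 to 231. Cd3e, Cd3g, Ly6g and Fcer1a were at 0 in every sample, and the part of other cells in the results was not tested.

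The members spanned 400.4 to 2271 kb, with a median of 558.5 kb, and 27 reached 1 Mb. The narrowest were Fam189a1, the cytolinker Dst and the extracellular matrix gene Tnr. The genes just outside the limit were Plxdc2 at 399.5 kb, the adenosine kinase gene Adk at 396.0 kb and the carboxypeptidase gene Cpa6 at 395.2 kb. Of the 177 members, 175 were matched in the GENCODE annotation of GRCm38. Their longest transcript held a median of 17 exons, exons made up a median of 0.907% of its span, and 155 members had an intron of at least 100 kb. Roles were read from lists that are not complete. The list of cytoskeletal, scaffold or adhesion proteins held 44 members, and that of signalling proteins 22. Transcription, chromatin or RNA binding had 20, and ion channels or transporters 14. Enzymes or mitochondrial proteins had 13, and membrane trafficking and protein quality control 11. The other 53 stood in none of these lists, among them Kcnab1, Kalrn and Marchf1.

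The members held 4.60% of all normalised reads, and 10 genes held 43.7% of the members' share. Those 10, in order of mean reads over the 27 samples (not corrected for length), were Dennd1a, Lrmda, the formin Diaph2, the engulfment factor Elmo1, the sorting nexin Snx29, the transcription factor Foxp1, the kinase Cdk14, the Tudor-domain nuclease Snd1, the exocyst subunit Exoc4 and the Notch coactivator Maml2, from 11081 down to 4276 reads. Divided by gene width, the members' median was 0.108 reads per kb. It was 3.32, 2.87 and 2.09 reads per kb in protein-coding genes under 25 kb, of 25 to 100 kb and of 100 to 400 kb. Among genes with a mean of at least 50 reads the medians were 1.18 reads per kb for the members and 8.15, 4.35 and 3.41 for the other classes. The same limits on reads applied to every class, so a wider gene could enter at fewer reads per kb. This order is thus in part set by the limits, and whether introns were counted is not given. The members' share of all reads was 4.96% ± 0.16 (SD, n = 3) in untreated cells, 3.69% ± 0.45 at 4 h of LPS and 4.90% ± 0.46 at 4 h of IL-4. Their summed reads were 125792 ± 1989 in untreated cells and 143180 ± 18476 at 4 h of LPS, where the library totals were higher too.

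LPS changed 129 of the 177 members over the course, 72.9% of them, against 87.6% of all genes tested (limma F test, adjusted p under 0.05). The largest change was a rise in 56 members, 31.6% (32.9% of all genes), and a fall in 73, 41.2% (54.7% of all genes). Directions changed with time. At 0.5 h of LPS 53 members were higher and 7 lower than untreated, 29.9% and 3.95%, against 19.6% and 34.4% of all genes. By 1 h the counts were 44 higher and 28 lower (24.8% and 39% of all genes). At 2 h they were 45 and 63, with 26.9% and 39% in the background. At 4 h they were 47 and 66, 26.6% and 37.3% of the members, against 25.9% and 37.6% of all genes. Of the 96 members with a mean of at least 50 reads, 27 were higher and 55 lower at 4 h, 28.1% and 57.3%. In the other classes at that limit, from the shortest to the longest, 25.5%, 42% and 52.1% were lower.

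Width classes split at 100 kb at the first time point. At 0.5 h of LPS, 43.1% of protein-coding genes under 25 kb and 44.2% of those of 25 to 100 kb were lower than untreated, against 8.32% of those of 100 to 400 kb and 3.95% of the members. The median log2 change of the members was 0.39 ± 0.13 (SD of the 3 replicate medians) at 0.5 h, 0.13 at 1 h, 0.09 after 2 h and -0.15 at 4 h, while over all genes tested it was -0.24, -0.30, -0.29 and -0.26. In the 96 members with a mean of at least 50 reads the decline was steeper, from 0.38 at 0.5 h over -0.03 and -0.79 to -0.85 at 4 h. The members' direction at 0.5 and 1 h depended on the scaling: scaled to equal totals, 7 members were higher and 21 lower at 0.5 h with a median of -0.11, and with median-of-ratios factors 88 were higher and 4 lower with a median of 0.64. The median of all genes at 0.5 h was then -0.73 and -0.0027, in place of -0.24. At 1 h equal totals gave 16 members higher and 68 lower (median -0.42) and median-of-ratios 55 and 16 (0.40), and at 4 h they gave 27 and 82 (-0.73) and 54 and 59 (0.09). Without replicate 2 or without replicate 3 the members called at 0.5 h fell from 33.9% to 10.7% and 12.4%, and those called at 1 h from 40.7% to 24.3% and 24.9%. Whether the shares of all genes moved as much was not tested.

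**Figure D1:**
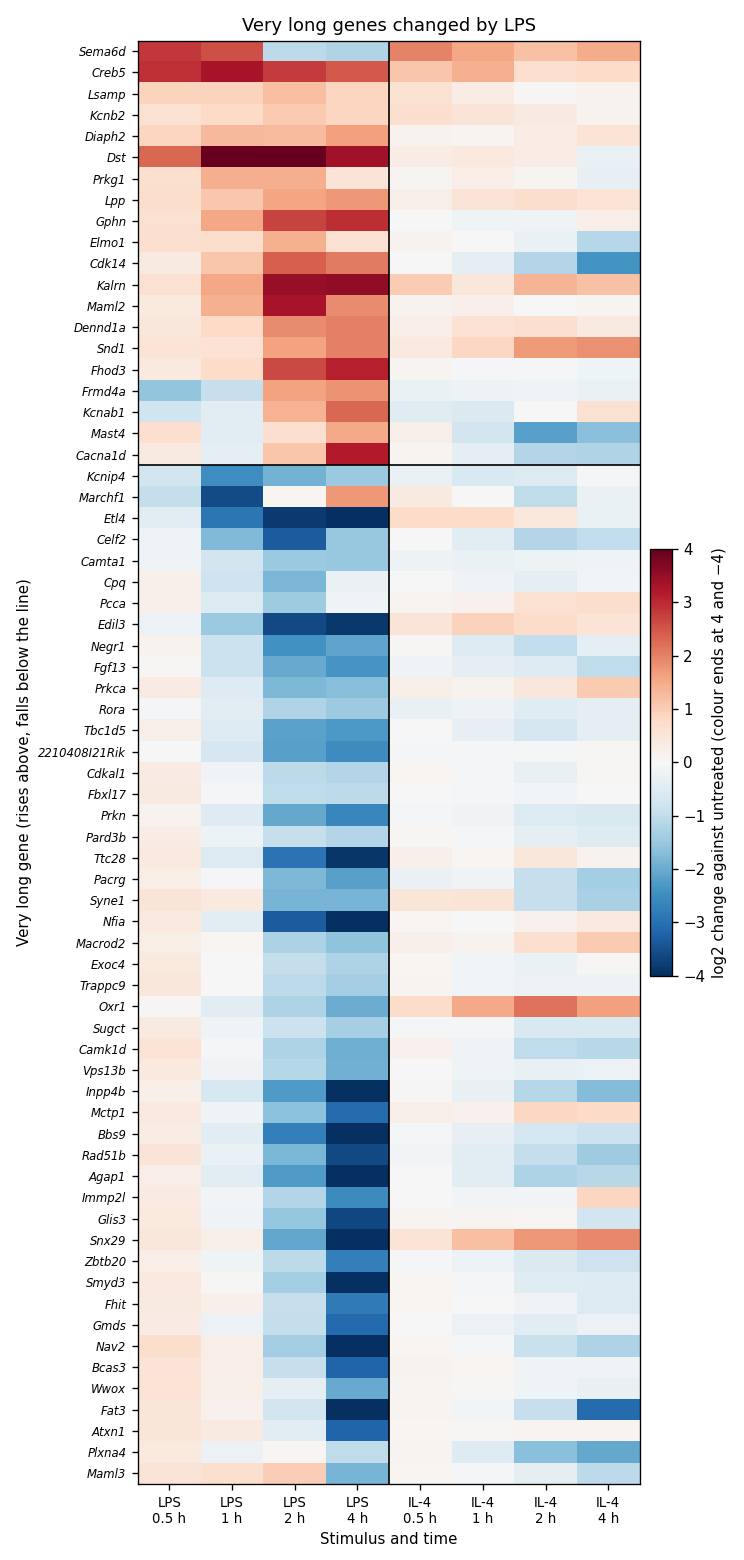
Log2 change against untreated at each of the 4 times of LPS (left) and IL-4 (right) for very long genes with a mean of at least 50 reads that passed the LPS F test with a largest change of at least 1 on the log2 scale, ordered by when they reached 50% of it. Red is higher and blue lower. Most genes in the lower block are pale at 0.5 h and darken at 2 and 4 h.

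Delay was described as the percent of a gene's largest log2 change that was present at each time, over genes that passed the F test with a largest change of at least 1. The time at which 50% was reached was read from straight lines between the time points. These are shares of a log2 change, not of the change in reads. Part of the way, a share of a log2 rise is a smaller share of the rise in reads. For a fall, the share in reads is the larger one. Of 61 members whose largest change under LPS was a fall, 48 reached it at 4 h, 8 already by 2 h, 5 by 1 h and 0 by 0.5 h. The median share of the fall was -10.1% at 0.5 h, 11.6% at 1 h and 73.3% after 2 h. On the authors' scaling 46 of the 61 lay above untreated at 0.5 h, a direction that depends on the scaling. Among all members with a mean of at least 50 reads, 43 were higher and 5 lower at 0.5 h. Equal totals gave 4 and 17 there, and median-of-ratios 70 and 2. The share for falls alone was not computed on those scalings. In the other width classes, from the shortest to the longest, the share of the fall at 0.5 h was 74.9%, 46.3% and -0.1%. The members reached 50% of their fall at a median of 95.4 min (quartiles 76.0 and 126.0 min), against 20.0, 32.9 and 56.8 min in the other classes. The members' time was 98.0 min over the 57 members whose overlapping genes summed to under 50% of their own reads.

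Among the members, rises under LPS came sooner than falls on the log2 scale. The order in reads was not computed, and the scale itself favours early rises and late falls. The 42 rising members had reached a median of 39.8% of their rise at 0.5 h and 92.9% at 2 h, and 50% came at a median of 46.8 min (quartiles 26.6 and 72.1 min). The other classes, from the shortest to the longest, had 36.6%, 32.2% and 26.4% at 0.5 h and reached 50% at 40.4, 42.1 and 43.5 min. With a mean of at least 50 reads over the 27 samples, 20 rising members reached 50% at 62.9 min, against 37.4, 41.2 and 42.3 min in the other classes at the same limit. Over the 32 rising members whose overlapping genes summed to under 50% of their own reads the time was 60.1 min. Largest rises were spread over the course, 4 at 0.5 h, 4 at 1 h, 16 after 2 h and 18 at 4 h.

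**Figure D2:**
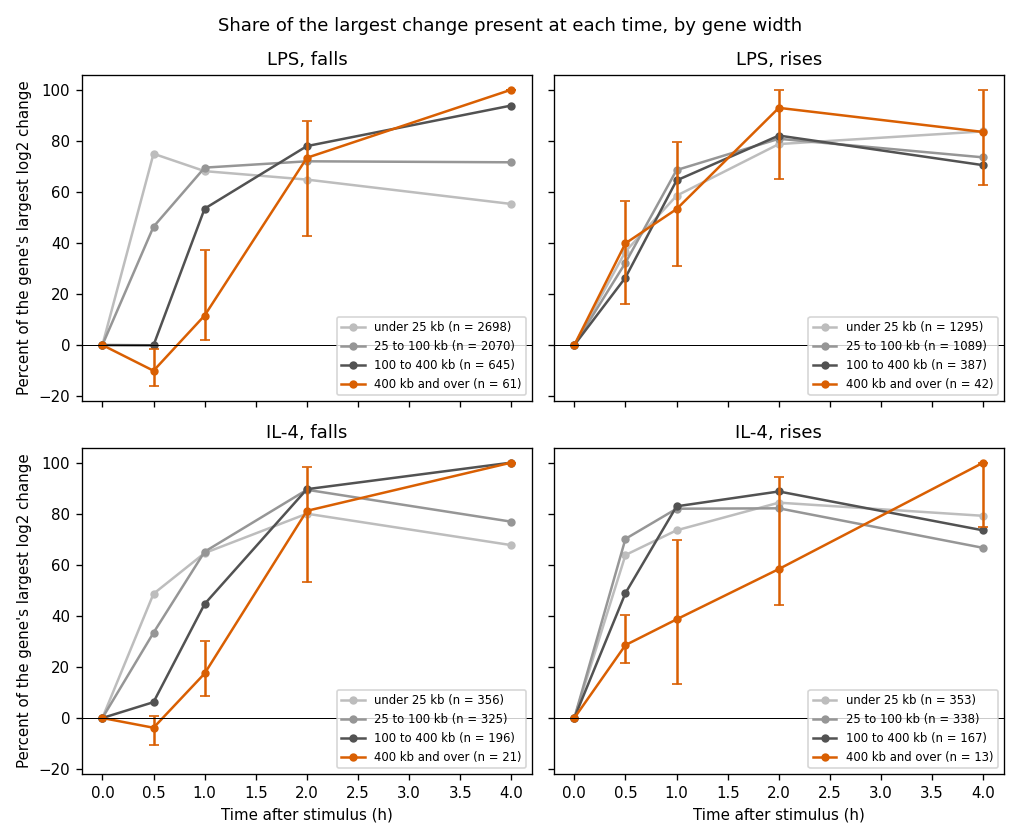
Median percent of each gene's largest log2 change present at each time in hours, for falls and rises under LPS and IL-4 and for protein-coding genes of 4 width classes, with n genes in each key. Bars are quartiles over the very long genes. On the authors' scaling, falls of the very long genes start below 0 at 0.5 h. They reach 73.3% under LPS and 81.1% under IL-4 at 2 h.

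Steps between neighbouring times, a comparison chosen after seeing the data, also gave more falls than rises among the members. From 0.5 to 1 h, 12 members rose and 47 fell, 33.3% in either direction (25.1% and 24.6% of all genes, 49.7% in either direction), from 1 to 2 h 23 rose and 55 fell (21.5% and 21.8%, 43.3%), and from 2 to 4 h 18 rose and 39 fell (11.4% and 11.5%, 22.9%). As shares of the members, the falls were 26.6%, 31.1% and 22.0%. Directly compared, 29 members were higher and 77 lower at 4 h than at 0.5 h of LPS, 16.4% and 43.5%, against 32.3% and 30.8% of all genes.

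The genes ranked below by size or timing of change are members with a mean of at least 50 reads in the higher of untreated and the time of largest change. The deepest falls under LPS, with no overlap between those groups, were those of Snx29, Bbs9, Fat3, Nav2, Agap1 and Nfia. Snx29 (chr16:11322904-11755473, plus strand, GRCm38) encodes a sorting nexin, a family of proteins that bind membrane phosphoinositides. It had 4161, 2861 and 3035 normalised reads in untreated cells, 6272, 3833 and 3974 at 0.5 h of LPS, 5018, 3625 and 3153 at 1 h, 1081, 619 and 704 after 2 h and 106, 72 and 73 at 4 h. The samples of the first hour overlapped with untreated and those of 2 and 4 h lay below it. The log2 change was 0.47 ± 0.25 (SE) at 0.5 h (adjusted p = 0.128) and fell to -5.31 ± 0.25 at 4 h (adjusted p = 5.01e-11). P-values given for LPS do not pair samples by replicate number. Bbs9 (chr9:22475715-22888280), a subunit of the BBSome that carries cargo to cilia, had 516, 578 and 618 reads untreated and 10, 18 and 17 at 4 h of LPS, a log2 change of -5.20 ± 0.20 (adjusted p = 4.81e-12). At 0.5 h it stood at 582, 769 and 745 reads, in part above untreated.

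Fat3 (chr9:15910189-16502054, minus strand) encodes an atypical cadherin, and no other gene of the table overlaps it. Its reads were 439, 443 and 396 untreated, 668, 612 and 501 at 0.5 h of LPS, 600, 465 and 383 at 1 h, 331, 228 and 225 after 2 h and 17, 16 and 7 at 4 h. The 0.5 h samples all exceeded the untreated ones, but the rise did not pass the test (log2 0.47 ± 0.26, adjusted p = 0.147), whereas the fall at 4 h did (-4.98 ± 0.26, adjusted p = 2.01e-10). It reached 50% of its fall only at 170 min. Nav2 (chr7:48959073-49610088), a microtubule-associated neuron navigator, rose at 0.5 h, from 1797, 1850 and 1881 to 3373, 2948 and 2629 reads (log2 0.69 ± 0.21, adjusted p = 0.0106), before falling to 99, 70 and 55 at 4 h (-4.65 ± 0.21, adjusted p = 2.59e-11).

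Agap1 (chr1:89454811-89895282), which activates the GTPase of Arf proteins, went from 909, 1079 and 1129 reads to 59, 35 and 33 at 4 h of LPS (log2 -4.63 ± 0.19, adjusted p = 8.74e-12). The transcription factor gene Nfia (chr4:97581943-98118876) rose slightly at 0.5 h, from 1003, 1073 and 1150 to 1200, 1534 and 1527 reads (0.39 ± 0.13, adjusted p = 0.0205), and had 107, 90 and 122 reads by 2 h and 45, 48 and 42 at 4 h (-4.55 ± 0.13, adjusted p = 3.47e-13). That the 4 h samples of these 6 genes lay below every untreated sample was a condition for naming them, not a result. The rises of Nav2 and Nfia at 0.5 h are measured on the authors' scaling, with the median of all genes at -0.24; scaling to equal totals lowered that median to -0.73.

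**Figure D3:**
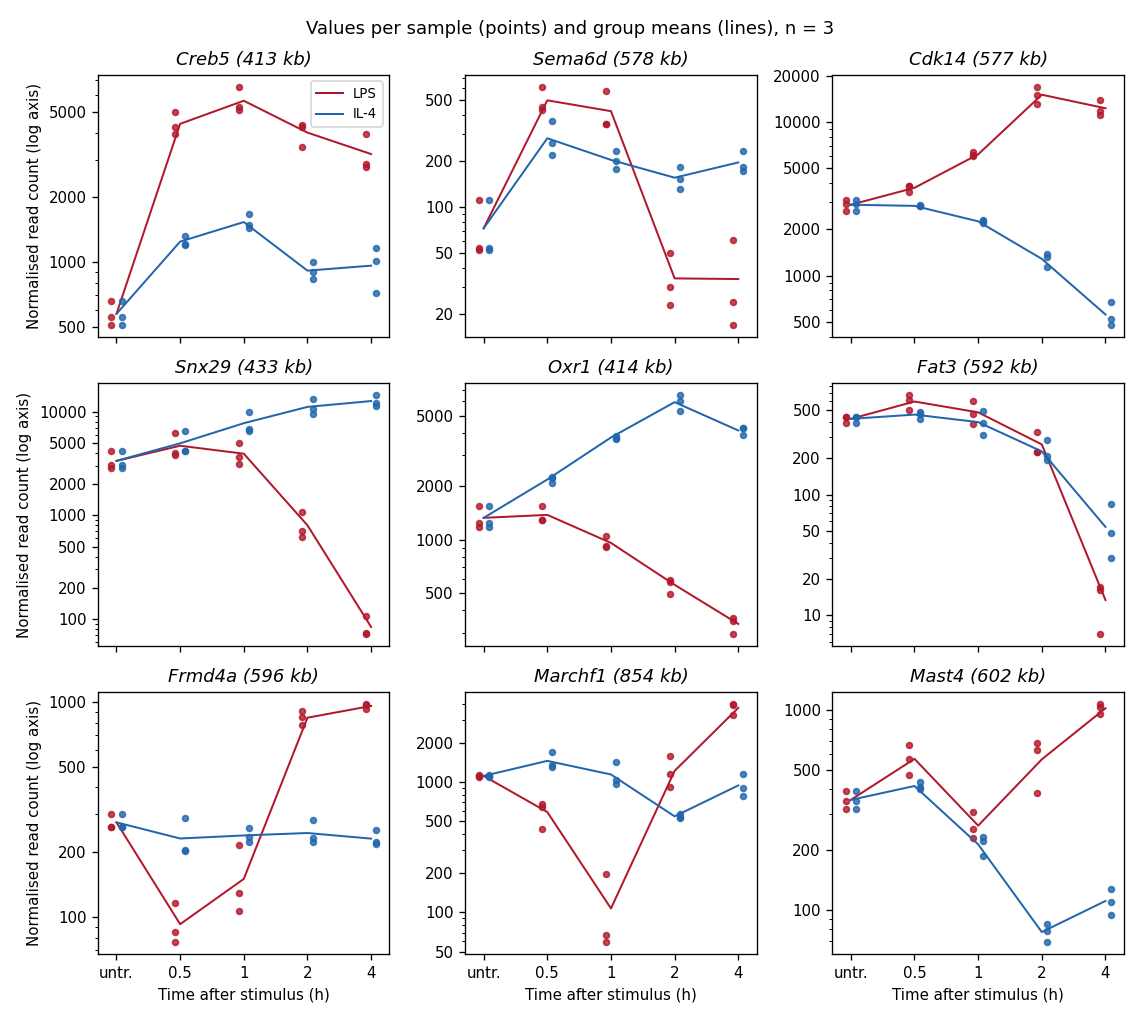
Normalised reads (log axis) in each of 3 samples a group (points) and group means (lines) against time in hours for 9 very long genes under LPS (red) and IL-4 (blue); the untreated samples are drawn for both. Snx29 and Oxr1 rise under IL-4 and fall under LPS, Cdk14 and Mast4 do the reverse at 4 h, and Marchf1 falls to 196, 59 and 67 reads at 1 h of LPS before it rises.

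The steepest rises under LPS were those of Dst, the overlapping pair Iqschfp and Schip1, Pakap, Kalrn and Maml2. Dst (chr1:33908225-34308662, plus strand) encodes dystonin, which links cytoskeletal filaments. Its 554, 333 and 289 reads in untreated cells became 2546, 1872 and 1335 at 0.5 h, 9472, 6370 and 6190 at 1 h, 13662, 8039 and 9389 after 2 h and 6490, 3276 and 2684 at 4 h. The groups did not overlap with untreated at any time, and the log2 change was 4.74 ± 0.33 at 2 h (adjusted p = 5.55e-09). Replicate 1 was the highest sample in every group. Maml2 (chr9:13297958-13709533, plus strand), a Mastermind-like coactivator of Notch, moved later, with 2107, 1450 and 1465 reads untreated, 2932, 1846 and 1827 at 0.5 h, 5487, 4235 and 3794 by 1 h, and 18938, 14515 and 15868 after 2 h. Its rise at 0.5 h did not pass the test (log2 0.38 ± 0.26, adjusted p = 0.224), and at 2 h it was 3.31 ± 0.26 (adjusted p = 1.69e-08).

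The other 4 started from few reads. Iqschfp (chr3:67892220-68626482) is a read-through gene that contains the whole of Schip1 (chr3:68064802-68626482); both had 10, 8 and 3 reads untreated and 254, 127 and 163 at 2 h of LPS, the same reads counted in both, with a log2 change of 4.57 ± 0.41 each. Pakap (chr4:57434475-57896984), which joins a paralemmin to a protein kinase A anchoring protein, went from 17, 2 and 2 reads to 143, 94 and 111 at 2 h (log2 4.40 ± 0.64, adjusted p = 1.91e-05). Kalrn (chr16:33969073-34514027), a guanine nucleotide exchange factor, went from 27, 8 and 7 to 225, 111 and 123 reads at 4 h (3.53 ± 0.58, adjusted p = 6.6e-05). In Pakap and Kalrn replicate 1 was the highest sample in every untreated and LPS group.

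The 3 members farthest on the other side of untreated at 0.5 h of LPS, relative to their largest change and within that limit on reads, were Frmd4a, Kcnab1 and Plxna4. Frmd4a (chr2:4017683-4614043, plus strand), a FERM-domain scaffold, had 263, 261 and 301 reads untreated, 116, 76 and 85 at 0.5 h, 215, 129 and 106 at 1 h, 847, 783 and 903 after 2 h and 978, 931 and 964 at 4 h. It was below untreated in the first hour and above it later, with log2 changes of -1.58 ± 0.21 at 0.5 h (adjusted p = 1.26e-05) and 1.80 ± 0.21 at 4 h (adjusted p = 1.69e-06). Kcnab1 (chr3:64949212-65378225), a potassium channel beta subunit, did likewise, from 106, 112 and 113 reads to 63, 63 and 64 at 0.5 h and to 547, 563 and 544 at 4 h (log2 -0.79 ± 0.16 and 2.31 ± 0.16, adjusted p = 0.00075 and 5.5e-09). The genes overlapping Kcnab1 held 46.7% of its own reads. Plxna4, a semaphorin receptor, had 139, 75 and 68 reads untreated, 174, 101 and 94 at 0.5 h and 51, 35 and 47 at 4 h (0.40 ± 0.33, adjusted p = 0.328, and -1.01 ± 0.33, adjusted p = 0.0152). The fall of Plxna4 no longer passed the test without replicate 2 (adjusted p = 0.0915).

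Within the same limit on reads, the members with the largest percent of their LPS change present at 0.5 h were Kirrel3, Sema6d and Creb5; Dlgap1 and Myo16, below that limit, also reached 50% early. Sema6d (chr2:124089969-124667789, plus strand), a transmembrane semaphorin, had 112, 53 and 54 reads untreated, 615, 452 and 436 at 0.5 h, 574, 352 and 351 at 1 h, 50, 23 and 30 after 2 h and 61, 24 and 17 at 4 h. Its log2 change was 2.84 ± 0.41 at 0.5 h (adjusted p = 3.51e-05) and was below untreated at 4 h (-1.20 ± 0.41, adjusted p = 0.019), with overlap between those 2 groups. The adhesion molecule gene Kirrel3 went from 26, 21 and 22 reads to 89, 63 and 52 at 0.5 h (1.49 ± 0.29, adjusted p = 0.00048) and was back at 37, 15 and 22 at 1 h. Marchf1 (chr8:65618040-66471637), a membrane ubiquitin ligase that lowers MHC class II at the cell surface, moved the other way: its 1113, 1101 and 1128 reads fell to 679, 438 and 649 at 0.5 h and 196, 59 and 67 at 1 h (-3.58 ± 0.34, adjusted p = 2.25e-07), and rose to 3882, 3270 and 3966 at 4 h (1.73 ± 0.34, adjusted p = 0.000331).

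Creb5 (chr6:53287303-53700364, plus strand) encodes a basic leucine zipper factor that binds cyclic AMP response elements. It had 658, 509 and 555 reads untreated and 5015, 3932 and 4241 at 0.5 h of LPS, 6543, 5106 and 5240 at 1 h, 4348, 3413 and 4244 after 2 h and 3926, 2765 and 2851 at 4 h. All LPS samples exceeded all untreated ones. The log2 change was 2.94 ± 0.16 at 0.5 h (adjusted p = 9.44e-10) and 3.29 ± 0.16 at 1 h (adjusted p = 1.54e-10), so that 89.2% of the largest change was present at 0.5 h. RefSeq gives Creb5 a second start far into the gene, 127 kb from the gene's end.

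The starts of Creb5, an early rise, and of Snx29, the deepest fall under LPS and a rise under IL-4, are shown to let both ends of the range be seen at the level of sequence. The 300-base windows are those of the RefSeq annotation of GRCm38.p6, on the plus strand, and capitals mark a match to the cyclic AMP response element TGACGTCA or to the AP-1 motif TGANTCA.
Creb5 first start, chr6:53287053-53287352: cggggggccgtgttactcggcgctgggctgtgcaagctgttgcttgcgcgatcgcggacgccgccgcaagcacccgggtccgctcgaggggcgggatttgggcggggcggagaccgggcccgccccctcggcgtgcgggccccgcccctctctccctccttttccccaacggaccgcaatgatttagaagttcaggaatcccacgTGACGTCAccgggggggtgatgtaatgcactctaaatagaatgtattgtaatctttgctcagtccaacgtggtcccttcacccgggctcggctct
Creb5 second start, chr6:53573124-53573423: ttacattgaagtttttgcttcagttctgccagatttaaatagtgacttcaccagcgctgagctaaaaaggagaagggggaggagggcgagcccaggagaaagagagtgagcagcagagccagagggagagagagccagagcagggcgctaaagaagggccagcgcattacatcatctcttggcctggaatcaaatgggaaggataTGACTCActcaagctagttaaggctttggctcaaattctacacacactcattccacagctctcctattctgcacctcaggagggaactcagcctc
Snx29 first start, chr16:11322654-11322953: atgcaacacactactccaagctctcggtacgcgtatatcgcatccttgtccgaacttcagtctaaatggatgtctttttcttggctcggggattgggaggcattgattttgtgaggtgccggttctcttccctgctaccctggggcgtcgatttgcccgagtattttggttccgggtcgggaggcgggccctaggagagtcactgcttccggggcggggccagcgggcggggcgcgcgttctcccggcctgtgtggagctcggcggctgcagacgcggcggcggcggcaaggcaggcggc
Snx29 second start, chr16:11405398-11405697: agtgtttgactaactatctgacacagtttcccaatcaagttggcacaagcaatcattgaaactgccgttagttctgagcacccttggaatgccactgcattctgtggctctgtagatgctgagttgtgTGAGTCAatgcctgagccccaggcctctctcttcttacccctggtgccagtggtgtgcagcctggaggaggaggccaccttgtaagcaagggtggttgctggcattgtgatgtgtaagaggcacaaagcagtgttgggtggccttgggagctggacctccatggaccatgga

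The first window of Creb5 held a TGACGTCA at bases 206 to 213, 37 bases before the start, and was rich in G and C (64.7%, 31 CG pairs). The second held an AP-1 match at bases 206 to 212, 38 bases before the start, with 50% G and C and 4 CG pairs. The first window of Snx29 (63% G and C, 29 CG pairs) held neither motif, and its second (52.7%, 1 CG pair) held an AP-1 match at bases 129 to 135. Over all 32851 windows, TGACGTCA occurred on either strand in 1.79% and TGANTCA in 7.81%. Among 236 windows of the 143 members with a start in this table the shares were 0.847% and 5.08%. TTC and GAA with 4 bases between, the spacing bound by STAT6, occurred in 6.95% of all windows and 8.47% of the members' windows, and the NF-kB consensus in 4.51% and 5.08%. TGACGTCA holds no TGANTCA within it, and a match is a description of the letters only.

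**Figure D4:**
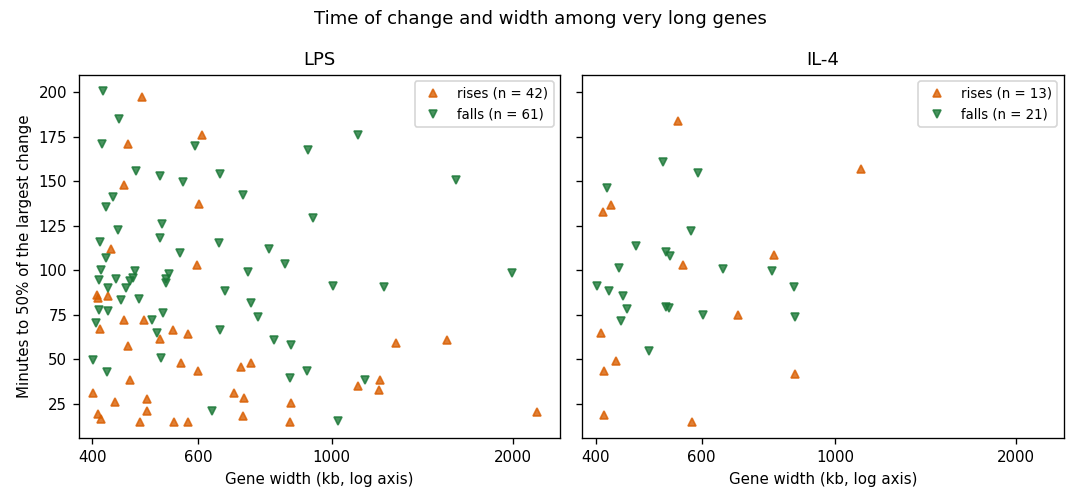
Minutes to 50% of the largest log2 change against gene width (kb, log axis) for very long genes that passed the F test with a largest change of at least 1, under LPS (left) and IL-4 (right); triangles pointing up are rises and pointing down falls. The quartiles of the 61 falls under LPS are 76.0 and 126.0 min.

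Within the members, the time of the fall was much alike across widths. Falling members of 400 to 500 kb reached 50% of the LPS fall at a median of 95.6 min, those of 500 to 700 kb at 96.7 min and those of at least 700 kb at 91.4 min. For the rises, 19, 11 and 12 genes, the medians were 67.1, 61.3 and 33.9 min. Level differed too: over all members of these width groups the median reads were 166.5, 94.4 and 47.6. Rises with a mean under 50 reads reached 50% at 38.6 min, against 62.9 min for the others, and level was not separated from width. Of the 177 members, 143 had starts in the RefSeq table, 59 of them more than 1, and 27 had a start under 200 kb from the gene's end. Among members that reached 50% of their LPS rise within 60 min, 5 of the 22 in that table had such a start, and among the slower rises 5 of 15. For falls within 60 min it was 3 of 9, Marchf1 included (85.3 kb), and for slower falls 3 of 39. Sema6d, whose largest change came at 0.5 h under both stimuli, had its second start 14.2 kb from the gene's end.

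IL-4 changed 71 of the 177 members, 40.1%, against 40.3% of all genes tested. The largest change was a rise in 26 members (14.7%; 19.4% of all genes) and a fall in 45 (25.4%; 20.9% of all genes). At 0.5 h 6 members were higher and 1 lower (8.15% and 8.14% of all genes), at 1 h 10 and 7 (11.1% and 9.83%), at 2 h 15 and 37 (14.3% and 13.2%) and at 4 h 22 and 35 (13.4% and 12.5%). As shares of the members, the 2 h and 4 h falls were 20.9% and 19.8%. Comparing 4 h with 0.5 h directly, 15 members were higher and 46 lower, 8.47% and 26.0%, against 14.6% and 12.7% of all genes. From 0.5 to 1 h of IL-4, 2 members rose and 5 fell (4.21% and 3.61% of all genes, 7.82% in either direction), from 1 to 2 h 6 rose and 17 fell (4.03% and 5.37%, 9.4%), and from 2 to 4 h 11 rose and 12 fell (2.4% and 3.09%, 5.48%).

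Replicates of one number deviated together in the untreated and IL-4 groups, and a fit with the replicate number as a block called more. With the block, the IL-4 course changed 104 of the 177 members, 58.8%, against 53.3% of all genes. Blocked counts at 0.5 h of IL-4 were 27 members higher and 4 lower, 17.5% in all, against 11.3% and 12.2% of all genes (23.6%). At 1 h 16 were higher and 19 lower, 19.8%, against 14.3% and 14.9% (29.2%). At 2 h 26 were higher and 51 lower (17.7% and 19.0% of all genes), and at 4 h 28 and 52 (17.3% and 18.1%). For 4 h against 0.5 h the blocked counts were 19 higher and 68 lower (19.3% and 18.1% of all genes). Between neighbouring times the blocked fit gave 6 rises and 17 falls from 0.5 to 1 h (7.83% and 7.27% of all genes), 13 and 37 from 1 to 2 h (7.22% and 9.47%) and 18 and 20 from 2 to 4 h (5.84% and 6.58%). The IL-4 counts depended on which replicate number was left out, which removed every sample of that number. Shares of all genes with a replicate left out are not given, so whether the swing is particular to the members was not tested. The course called 56.5%, 18.6% and 21.5% of the members without replicate 1, 2 and 3. In the same order, 0.5 h called 12.4%, 2.26% and 1.69% in place of 3.95%, 1 h called 20.9%, 3.39% and 4.52% in place of 9.60%, and 2 h called 45.8%, 14.1% and 12.4% in place of 29.4%. At 4 h the 32.2% became 43.5%, 19.8% and 19.2%, and for 4 h against 0.5 h the 34.5% became 48.0%, 16.4% and 19.2%.

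Falls under IL-4 were late too. The 21 falling members had -3.8% of their fall at 0.5 h, 17.4% at 1 h and 81.1% at 2 h, and reached 50% at a median of 91.4 min (quartiles 79.1 and 110.2 min), against 31.2, 42.8 and 67.0 min in the shorter classes. The 13 rising members had 28.5% at 0.5 h, 38.6% at 1 h and 58.3% at 2 h and reached 50% at 75 min (quartiles 43.7 and 132.6 min), against 23.5, 21.4 and 30.9 min in the shorter classes. In the 9 rises with a mean of at least 50 reads the shares were 62.1% at 1 h and 89.9% at 2 h and the time was 49.2 min; the other 4 reached 50% at a median of 146.9 min. With the replicate block 21 rises reached 50% at 49.2 min and 26 falls at 92.4 min. The largest change came at 4 h in 16 of the 21 falls and 8 of the 13 rises.

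The strongest rises under IL-4 were those of Ncam2, Oxr1, Sema6d, Ctnnd2, Snx29 and Auts2. Oxr1 (chr15:41447482-41861048, plus strand), which protects against oxidative damage, is overlapped by no other gene of the table. It had 1556, 1180 and 1249 reads untreated, 2248, 2218 and 2082 at 0.5 h of IL-4, 3713, 3827 and 3749 at 1 h, 5298, 6047 and 6494 after 2 h and 3877, 4249 and 4235 at 4 h. Every IL-4 sample exceeded the untreated ones, and the log2 change was 0.73 ± 0.10 at 0.5 h (adjusted p = 0.000195) and 2.17 ± 0.10 at 2 h (adjusted p = 5.76e-09). Snx29 had 6458, 4198 and 4194 reads at 0.5 h (0.55 ± 0.21, adjusted p = 0.105, and 0.000103 with the replicate block) and rose to 9957, 6748 and 6524 at 1 h, 13324, 10543 and 9506 after 2 h and 14379, 11371 and 12259 at 4 h (1.93 ± 0.21, adjusted p = 1.6e-05). Its samples lay above every untreated sample from 0.5 h on. Sema6d was highest at 0.5 h, at 365, 265 and 219 reads (2.00 ± 0.26, adjusted p = 0.000117), and still stood at 234, 173 and 183 at 4 h.

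Auts2, a nuclear protein of Polycomb complexes that spans 1106 kb, changed last, from 16, 24 and 27 reads untreated and 36, 27 and 33 at 2 h to 91, 72 and 87 at 4 h of IL-4 (log2 1.88 ± 0.22, adjusted p = 2.4e-05). The delta-catenin gene Ctnnd2 rose from 93, 113 and 117 to 363, 377 and 569 reads at 2 h (1.98 ± 0.20, adjusted p = 5.69e-06), with overlapping genes that held 60.9% as many reads as it did. The adhesion gene Ncam2 rose from 9, 20 and 22 to 53, 92 and 106 reads at 4 h (2.27 ± 0.73, adjusted p = 0.0363). That call was lost without replicate 2 (adjusted p = 0.156) and without replicate 3 (adjusted p = 0.240). Creb5 rose under IL-4 too, to 1203, 1209 and 1322 reads at 0.5 h and 1676, 1436 and 1493 at 1 h (1.42 ± 0.15, adjusted p = 1.05e-05). The phospholipase C gene Plcb1 went from 37, 49 and 56 to 105, 93 and 88 reads at 2 h (1.01 ± 0.17, adjusted p = 0.000482).

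The deepest falls under IL-4 were those of Fat3, Cdk14, Mast4, Tmem117, Plxna4 and Inpp4b. Fat3 kept 490, 469 and 428 reads at 0.5 h and 495, 395 and 311 at 1 h and had 84, 48 and 30 at 4 h (log2 -3.08 ± 0.28, adjusted p = 2.55e-06). Cdk14 (chr5:4803384-5380251, minus strand), a cyclin-dependent kinase, had 2629, 2940 and 3132 reads untreated, 2828, 2877 and 2845 at 0.5 h of IL-4, 2271, 2219 and 2289 at 1 h, 1318, 1145 and 1391 after 2 h and 677, 475 and 519 at 4 h (-2.39 ± 0.12, adjusted p = 7.7e-09). Its 0.5 h samples lay within the untreated range and later ones below it. Mast4 (chr13:102732488-103334492, minus strand), a microtubule-associated kinase, fell from 320, 350 and 393 reads to 79, 69 and 85 at 2 h (-2.18 ± 0.12, adjusted p = 2.95e-08).

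Inpp4b (chr8:81342562-82127917), a phosphatase of phosphoinositides, fell from 1626, 1512 and 1462 to 558, 394 and 456 reads at 4 h of IL-4 (-1.72 ± 0.17, adjusted p = 6.4e-06). Tmem117 fell from 63, 56 and 59 to 17, 12 and 12 reads (-2.06 ± 0.20, adjusted p = 4.65e-06) and Plxna4 from 139, 75 and 68 to 24, 17 and 22 (-2.05 ± 0.36, adjusted p = 0.0008). The falls that had gone farthest the other way at 0.5 h of IL-4 were those of Syne1 and Marchf1. Syne1, a nesprin of the nuclear envelope, had 283, 384 and 395 reads untreated, 372, 576 and 544 at 0.5 h and 146, 139 and 142 at 4 h (0.48 ± 0.18, adjusted p = 0.0887, and -1.29 ± 0.18, adjusted p = 0.000101). With the replicate block the early rise of Syne1 passed (adjusted p = 0.00872), as did that of Marchf1 (adjusted p = 0.0224, and 0.129 without the block). Marchf1 had 536, 533 and 568 reads at 2 h of IL-4 (-1.03 ± 0.15, adjusted p = 0.000198).

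Between the stimuli, LPS and IL-4 samples of the same time were compared directly over all 27 samples. LPS was higher in 34 members and lower in 7 at 0.5 h (18% and 35.8% of all genes), 31 and 24 at 1 h (24% and 40.5%), 50 and 50 after 2 h (26.4% and 42.3%) and 51 and 62 at 4 h (26.1% and 41.9%). At 4 h that was 63.8% of the members in either direction, against 68% of all genes. At 0.5 h the 23.2% called in either direction became 37.9%, 12.4% and 10.2% without replicate 1, 2 and 3, and at 1 h the 31.1% became 18.6% without replicate 3. These shares are of members, and those of all genes are not given. Snx29 differed most among the members named: its 106, 72 and 73 reads at 4 h of LPS stood against 14379, 11371 and 12259 at 4 h of IL-4, a log2 difference of -7.24 ± 0.24 (adjusted p = 1.05e-17). Both courses share the untreated samples, but this comparison does not use them.

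Cdk14 went the other way. Under LPS it had 3515, 3865 and 3840 reads at 0.5 h, 6404, 6038 and 6104 at 1 h, 17093, 13274 and 15099 after 2 h and 13970, 11245 and 11887 at 4 h (log2 2.38 ± 0.12 at 2 h, adjusted p = 1.12e-10), and it was higher than under IL-4 by 4.48 ± 0.12 at 4 h (adjusted p = 1.48e-19). Mast4 rose under LPS to 1066, 1026 and 952 reads at 4 h (1.52 ± 0.19, adjusted p = 4.87e-06) and was higher there than under IL-4 by 3.19 ± 0.17. Oxr1 fell under LPS to 350, 296 and 362 reads at 4 h (-1.97 ± 0.13, adjusted p = 3.12e-09) and was lower there than under IL-4, with a difference of -3.62 ± 0.11. At 4 h, 50 members passed the test against untreated under both stimuli, 29 of them lower under both and 6 higher under both. Of the others, 5 were higher under LPS and lower under IL-4 than untreated (Cacna1d, Elmo1, Atrnl1, Cdk14 and Mast4), and 10 were lower under LPS and higher under IL-4 (Prkca, Oxr1, Ncam2, Snx29, Nfia, Lrba, Sema6d, Mctp1, Immp2l and Auts2). All 15 passed the direct comparison, as did 24 of the 29 and 4 of the 6. These calls share the untreated samples. The overlap was counted among the members only, and whether it differs from that of all genes was not tested.

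**Figure D5:**
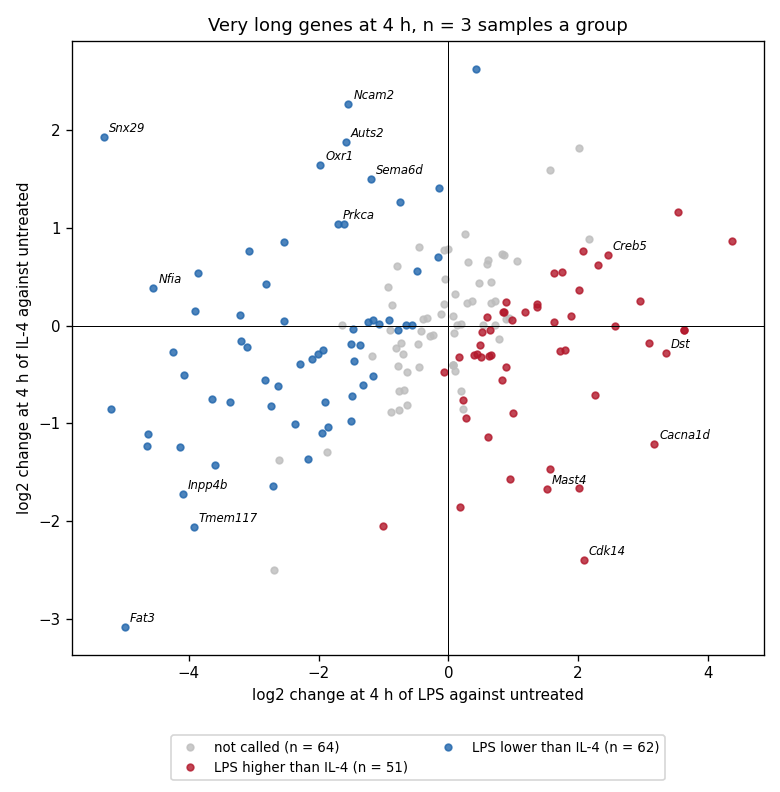
Log2 change at 4 h of IL-4 against that at 4 h of LPS, both against the same 3 untreated samples, for the 177 very long genes, coloured by the direct comparison of LPS with IL-4 samples (51 higher under LPS, 62 lower, 64 not called). Snx29 lies farthest to the upper left and Cdk14 to the lower right.

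Over all genes tested 87.6% passed the LPS F test, 32.9% as rises and 54.7% as falls, which is the background for the counts by role. Of all genes, 19.6% were higher and 34.4% lower at 0.5 h of LPS, and 25.9% and 37.6% at 4 h. Of 13 enzymes and mitochondrial proteins 10 passed the LPS F test, 0 as rises and 10 as falls. At 0.5 h 5 of them were higher and 0 lower on the authors' scaling (median 0.31), and at 4 h 9 were lower with a list median of -1.61, among them Oxr1. Of 20 members in transcription, chromatin or RNA binding, 16 changed, 5 as rises and 11 as falls; at 4 h 2 were higher (Creb5 and Maml2) and 12 lower, with a median of -1.48. Of 11 trafficking members 9 changed, 2 as rises and 7 as falls; at 4 h 7 were lower, Snx29 among them, and 1 higher, Dennd1a, an activator of Rab GTPases (median -1.06). The background median at 4 h of LPS was -0.26 over all genes.

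Signalling members were split, with 7 rises and 10 falls among 17 changed of 22, and at 4 h 5 higher, such as Cdk14 and Mast4, and 10 lower, such as Agap1, Inpp4b and the protein kinase C gene Prkca (median -0.62). Cytoskeletal, scaffold and adhesion members had more rises than falls: 28 of 44 changed, 19 as rises and 9 as falls. At 4 h 16 were higher, Dst and Diaph2 among them, and 9 lower, Fat3 and Nav2 among them (median 0.38). Only 20 of these 44 had a mean of at least 50 reads. Among 14 channels and transporters 11 changed, 6 as rises and 5 as falls, with 7 higher and 4 lower at 4 h (median 0.61). The 24 members that host common fragile sites, a list that cuts across the roles, had 18 changed, 5 as rises and 13 as falls, with 3 higher and 13 lower at 4 h (median -1.20). The 53 members in no role list had 38 changed, 17 as rises and 21 as falls. Kcnab1, Kalrn and Marchf1 are among these 53, so the counts by role leave them out.

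Under IL-4 40.3% of all genes tested passed the F test, 19.4% as rises and 20.9% as falls. Of the members, 15 of the 22 signalling genes changed, 4 as rises and 11 as falls. In transcription, chromatin and RNA binding 9 of 20 changed (3 rises and 6 falls), in trafficking 8 of 11 (4 and 4), among enzymes 7 of 13 (3 and 4), among channels 6 of 14 (1 and 5) and in the cytoskeletal list 11 of 44 (6 and 5). Of 24 fragile site hosts 8 changed, 2 as rises and 6 as falls. With the replicate block 21 of the 44 cytoskeletal members and 15 of the 24 fragile site hosts changed, against 53.3% of all genes, and the other role counts moved by less than 1.5 times. None of these shares was tested against other genes. Factors of polymerase pausing and elongation, which are not members, are given for context: of 56 tested, 46 changed under LPS, 20 as rises and 26 as falls, with a median of -0.20 at 4 h, and 20 changed under IL-4, 11 as rises and 9 as falls.

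The widest members were Ptprd, Dmd, Lsamp, Macrod2 and Csmd1. Ptprd, a receptor tyrosine phosphatase gene of 2271 kb, had 83, 26 and 23 reads untreated and 32, 10 and 4 at 4 h of LPS, and passed neither F test (adjusted p = 0.141 and 0.910). The dystrophin gene Dmd had 13, 8 and 9 reads untreated and 18, 20 and 20 at 1 h of LPS (log2 0.91 ± 0.26, adjusted p = 0.00724), a call lost without replicate 2 (adjusted p = 0.126) or 3 (adjusted p = 0.102); overlapping genes held 71.1% as many reads. Lsamp, an adhesion gene of 2197 kb, rose from 39, 39 and 30 to 83, 84 and 86 reads at 2 h of LPS (1.22 ± 0.20, adjusted p = 7.97e-05). Macrod2, which removes ADP-ribose from proteins, had 51, 190 and 180 reads untreated and 25, 39 and 60 at 4 h of LPS (-1.61 ± 0.58, adjusted p = 0.024), a fall that did not pass without replicate 2 (adjusted p = 0.219) or 3 (adjusted p = 0.0915). Csmd1, a complement-regulating membrane protein gene, rose from 996, 849 and 809 to 1704, 1658 and 1867 reads at 4 h of LPS (0.98 ± 0.12, adjusted p = 2.67e-06). None of the 5 passed the IL-4 F test, but with the replicate block Csmd1 (adjusted p = 0.00228) and Macrod2 (adjusted p = 2.54e-05) did.

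At the narrow end, Fam189a1 had 5, 5 and 9 reads untreated and passed neither F test. Tnr fell from 4, 17 and 17 reads to 0, 2 and 1 at 4 h of LPS (adjusted p = 0.00857) and to 0, 2 and 2 at 4 h of IL-4 (adjusted p = 0.0172); the first call was lost without replicate 3 (adjusted p = 0.103) and the second without replicate 2 (adjusted p = 0.169) or 3 (adjusted p = 0.144). Just below the limit, Adk had a largest LPS change of -3.70 at 4 h, Plxdc2 one of -0.92 at 1 h and an IL-4 change of 1.54 at 4 h, and Cpa6 passed neither F test.

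Reads over a long gene can belong to a gene inside it. Only 12 members overlapped no other gene of the table, Fat3, Oxr1, Ncam2 and Diaph2 among them, and 81 overlapped none that was tested. In 40 members the overlapping genes summed to at least 50% of the member's own reads, 18 of them with a mean of at least 50 reads. In Csmd1 the inner gene C030002A05Rik on the same strand had 92.7 to 99.4% as many reads as Csmd1 itself in each sample, and in Lsamp the inner gene Gm52229 had 51.8 to 96.4%. In Car10 the inner gene Gm35002 had 95.7 to 100%, in Kcnd2 Gm52855 had 96.3 to 100% and in Dscam Gm32432 on the other strand had 86.7 to 100%. Gm37013, Gm38666 and Gm38667, which overlap each other, had the same reads in all 27 samples and count as 3 of the members. The sources used here do not say whether counting used strand, so the values of these members cannot be told from those of the genes inside them.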

How the data were processed

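Chromatin-associated RNA from 27 samples in 9 groups of 3 was sequenced from random-primed libraries. Per the labels and the study's methods, the authors aligned reads to mm10 with TopHat2 2.1.1, removed multiply mapped and blacklisted reads, and counted reads per RefSeq gene of GRCm38.p6; the submitters' notes also list bedtools 2.29.2, R 3.6.2 and DESeq2. The deposited values are a normalised score, counts that the authors scaled on genes taken as invariant and rounded, so depth can no longer be read from them and no count model was used. Whether introns or strand entered the counting is not given in the sources used here; strand-blind counts mix overlapping genes.

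Genes with at least 10 in at least 3 samples were tested (13901). Values were taken as log2(value + 1), and limma 3.58.1 (R 4.3.3, trend) was fitted to each course with the untreated samples, with an F test over the 4 times and contrasts for each; LPS was set against IL-4 in a fit of all 27 samples. P-values were adjusted by Benjamini-Hochberg over all genes tested, threshold 0.05. A fold change on this scale understates the change of low genes. The study's own model of the courses was not run. Tables were handled in Python 3.11.15 with pandas 2.3.3 and numpy 2.4.6, and the fits were tested on simulated data.

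Deviations of same-numbered samples from their group means correlated above 0.1 in all 30 pairs among the untreated and IL-4 groups (lowest 0.207), so the numbers were taken to pair these samples. Among the untreated and LPS groups 29 of 30 did (median 0.271, lowest 0.0897), and they were not taken as pairs. P-values of the LPS course thus ignore the replicate number, and a change that failed its test is not shown to be absent. At 0.5 h of LPS, Snx29, Fat3 and Maml2 were above untreated in each replicate number, though none passed. Blocked values are given for the IL-4 counts and for some of the named genes whose call changes. Dst, Kalrn, Maml2 and Pakap, named for LPS, passed the IL-4 F test only with the block (adjusted p = 0.000144, 0.00125, 0.0196 and 0.00918).

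Members, lists and tests were chosen with earlier results of these data known. Named genes are the 6 largest rises and falls per stimulus that passed the F test with a mean of at least 50 in the higher of untreated and the time of largest change and replicates apart from untreated, the 3 lowest and 3 highest by percent of the largest change at 0.5 h (same mean), the 5 widest, the 3 narrowest and the 3 next below the limit. Other genes were named after their values were seen. Alternatives varied the pseudocount, the filter, the scaling (median-of-ratios, equal totals), the width limit, array weights, a replicate block, each replicate left out and overlapping genes.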

Additional observations from a re-analysis of the deposited data

Results flagged for a closer look

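Some results met a rule for a closer look because 2 effects under the same contrast went in opposite directions and the difference itself passed the test; values are log2 differences from limma with adjusted p. Under LPS against IL-4, Snx29 differed by -3.82 at 2 h (adjusted p = 1.52e-12) and -7.24 at 4 h (adjusted p = 1.05e-17), and Oxr1 by -3.41 at 2 h (adjusted p = 7.97e-18) and -3.62 at 4 h (adjusted p = 2.75e-18). Sema6d differed by -2.21 at 2 h (adjusted p = 6.77e-06) and -2.69 at 4 h (adjusted p = 3.97e-07). Prkca, the protein kinase C alpha gene, differed by -2.74 at 4 h (adjusted p = 1.35e-09). In the other direction, Cdk14 differed by 3.56 at 2 h (adjusted p = 8.04e-18) and 4.48 at 4 h (adjusted p = 1.48e-19), Cacna1d, a calcium channel gene, by 2.29 at 2 h (adjusted p = 8.15e-09) and 4.38 at 4 h (adjusted p = 6.48e-14), and Mast4 by 3.19 at 4 h (adjusted p = 6.43e-14). Within the LPS course, 4 h against 0.5 h, Sema6d differed by -4.03 (adjusted p = 4.53e-07) and Frmd4a by 3.38 (adjusted p = 1.2e-09).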

How the results depend on the processing

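The share of members called kept within 1.5 times of its value under each alternative run for the LPS course, LPS 2 h, LPS 4 h, LPS 4 h against 0.5 h, and LPS against IL-4 at 2 h and 4 h. Elsewhere it moved, and the cause was not tested. Shares in this paragraph are of members, without those of all genes under the same alternative, so no move can be read as particular to the members. Leaving out 1 replicate gave 18.6 to 56.5% for the IL-4 course, 10.7 to 46.9% for LPS 0.5 h, 24.3 to 50.3% for LPS 1 h, 1.69 to 12.4% for IL-4 0.5 h, 3.39 to 20.9% for IL-4 1 h, 12.4 to 45.8% for IL-4 2 h, 19.2 to 43.5% for IL-4 4 h, 16.4 to 48.0% for IL-4 4 h against 0.5 h, and 10.2 to 37.9% and 18.6 to 40.7% for LPS against IL-4 at 0.5 h and 1 h. With a mean of at least 50 reads the IL-4 course rose to 63.5%, IL-4 0.5, 1, 2 and 4 h to 8.33, 19.8, 50 and 51%, IL-4 4 h against 0.5 h to 52.1% and LPS against IL-4 at 0.5 h to 39.6%. The shares of all genes tested given above, such as 40.3% for the IL-4 course, lack that limit and are no background for these. With replicates 2 and 3 averaged, an alternative chosen after seeing the data, the IL-4 course gave 22.0%, LPS 0.5 h 14.7%, IL-4 0.5, 1 and 2 h 2.26, 5.08 and 16.4%, IL-4 4 h against 0.5 h 20.9% and LPS against IL-4 at 0.5 h 14.1%. Median-of-ratios gave 52.0% and 38.4%, and equal totals 15.8% and 13.6%, for LPS 0.5 h and LPS against IL-4 at 0.5 h. Array weights gave 6.78 and 16.4%, a limit of 300000 bases 6.19 and 14.8%, and one of 600000 bases 1.39 and 5.56%, for IL-4 0.5 and 1 h. Members that overlap no other gene gave 66.7% for LPS 1 h, 8.33% for IL-4 0.5 h and 66.7% for LPS against IL-4 at 1 h. The share of the largest change present at 0.5 h, pooled over rises and falls, was 0.143% under LPS and moved to -5.17% (pseudocount 8), -8.73% (mean of at least 50), 6.47% (equal totals), 10.1% (600000 bases), 13.8% (no overlapping gene) and -5.48% (overlapping genes under 50%, chosen after seeing the data); under IL-4 it was 0.000793% and moved to 6.21% (equal totals) and 6.74% (300000 bases). A replicate block gave 17.5, 19.8 and 37.9% for IL-4 0.5 h, IL-4 1 h and LPS against IL-4 at 0.5 h and 8.54% for the IL-4 share at 0.5 h, and moved no other count named here by over 1.5 times; over all groups same-numbered samples correlated above 0.1 in 106 of 108 pairs, lowest 0.0897, so the numbers were taken as pairs only within the IL-4 course. Of 475 alternatives for the named members, 0 reversed, 16 lost their call and 13 gained one. Low reads limit what can be seen: 81 members had a mean under 50.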
